A study of Mus musculus with 2 samples.

Results

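The tumour suppressor p53 (Trp53) and 9 of its direct target genes, Mdm2, Ccng1, Cdkn1a, Gadd45a, Perp, Bbc3, Pmaip1, Trp53inp1 and Sesn2, were examined in mouse embryonic fibroblasts (MEFs) with and without the kinase Lats2. The members were the non-control probes whose gene name on the array was 1 of these 10 symbols, which gave 15 of 41174 probes and 10 of 27579 gene names. The study compared untreated MEFs of the genotypes LATS2-/- (KO) and LATS2+/+ (WT), both derived from C57BL/6J mice, and some label fields spell the same genotypes LAT2. Total RNA of the 2 genotypes was labelled with Cy5 or Cy3 and co-hybridised to an Agilent array of long oligonucleotides that covers the mouse genes. On 1 array the KO RNA carried Cy5 and on the other it carried Cy3, and both arrays lay on the same slide. No label names separate cultures, animals or RNA preparations, so the arrays were treated as a dye swap of 1 pair of RNAs, with 1 replicate per genotype. All differences below therefore describe these RNAs and have no replicate check across cultures, and the number of arrays limits their precision.

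p53 is a transcription factor that is kept scarce in unstressed cells because the ubiquitin ligase Mdm2, itself a p53 target, marks it for degradation. When DNA damage, excess oncogene signalling or spindle failure stabilises the protein, it binds paired half-sites near its target genes and switches on genes for cell cycle arrest, repair, cell death and its own shut-off. Much of this control acts on the p53 protein and not on the Trp53 mRNA, and in fibroblasts the arrest response through the Cdk inhibitor p21 (Cdkn1a) is the best known outcome. Lats2 is a core kinase of the Hippo pathway that has also been linked to p53 through binding of Mdm2.

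The promoters of 4 members with a window that held an exact p53 half-site are shown. Their transcripts stood on different sides of the comparison, Ccng1, Cdkn1a and Mdm2 with ratios above 0 and Gadd45a with a ratio below 0. The window of Trp53, whose mean log2 ratio was -0.08, also held an exact half-site and is not shown. Windows without such a site, among them those of Bbc3 and Sesn2, are not shown either. The sequences are RefSeq promoter windows of the build GRCm38.p6, each running 5′ to 3′ on the strand of the gene from 250 bases before the transcription start to 50 after it. Capitals mark a p53 half-site, a 10-base consensus of purines, a C, a pair of A or T, a G and pyrimidines that reads the same on both strands, and in Ccng1 and Cdkn1a they also mark the half-site with 1 mismatch that adjoins an exact one. The Ccng1 window is chr11:40755237-40755536 on the minus strand, the Cdkn1a window is chr17:29090729-29091028 on the plus strand, the Mdm2 window is chr10:117710709-117711008 on the minus strand and the Gadd45a window is chr6:67037358-67037657 on the minus strand.
Ccng1: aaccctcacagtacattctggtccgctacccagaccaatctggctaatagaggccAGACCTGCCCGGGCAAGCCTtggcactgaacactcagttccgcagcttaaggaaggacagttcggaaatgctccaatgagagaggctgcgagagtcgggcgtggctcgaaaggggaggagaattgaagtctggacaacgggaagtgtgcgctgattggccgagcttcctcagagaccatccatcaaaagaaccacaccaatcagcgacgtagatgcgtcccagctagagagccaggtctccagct
Cdkn1a: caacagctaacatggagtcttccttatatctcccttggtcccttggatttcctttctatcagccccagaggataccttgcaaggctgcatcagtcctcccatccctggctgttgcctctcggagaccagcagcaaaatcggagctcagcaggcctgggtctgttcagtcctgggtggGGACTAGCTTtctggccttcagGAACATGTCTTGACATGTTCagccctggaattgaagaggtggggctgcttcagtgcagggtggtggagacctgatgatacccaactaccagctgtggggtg
Mdm2: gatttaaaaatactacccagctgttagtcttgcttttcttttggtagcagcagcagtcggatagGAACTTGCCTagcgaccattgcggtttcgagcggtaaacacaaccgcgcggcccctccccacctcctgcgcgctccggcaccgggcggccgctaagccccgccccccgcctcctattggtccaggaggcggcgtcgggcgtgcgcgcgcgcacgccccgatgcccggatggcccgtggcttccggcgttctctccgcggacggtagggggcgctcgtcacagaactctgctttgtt
Gadd45a: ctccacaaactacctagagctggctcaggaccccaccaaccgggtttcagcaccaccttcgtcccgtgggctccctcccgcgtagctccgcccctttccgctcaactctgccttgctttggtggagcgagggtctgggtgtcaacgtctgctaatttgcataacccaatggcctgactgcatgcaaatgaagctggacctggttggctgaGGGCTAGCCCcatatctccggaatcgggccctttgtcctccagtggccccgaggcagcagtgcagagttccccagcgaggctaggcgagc

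The Ccng1 window held a pair of adjoining half-sites that began 195 bases before the start, with 1 mismatch in all, of which the second half-site was exact. The Cdkn1a window held exact half-sites 73 and 51 bases before the start, separated by 12 bases. A further Cdkn1a pair, from 51 bases before the start and with no spacer, had 1 mismatch. In Mdm2 and Gadd45a a single exact half-site lay 186 and 40 bases before the start, and in Trp53 1 lay 75 bases before it. Windows, 10 in all, were available for 7 of the 10 members, and 5 of these genes had an exact half-site in at least 1 window. This count is per gene, while the shares of all promoters given below are per window. None was found in the windows of Sesn2 and Bbc3, nor in the second window of Cdkn1a (chr17:29093519-29093818). That window belongs to another start, downstream of the 1 from which the Cdkn1a distances above are counted. Of all 32851 RefSeq promoter windows of this length, 8.36% held an exact half-site, 0.0731% a pair of exact half-sites and 0.627% a pair with at most 1 mismatch and a spacer of at most 13 bases. Perp, Pmaip1 and Trp53inp1 had no entry in the table. A match describes letters in the window and is not a measured binding site.

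Before any direction was drawn, the targeted gene was read on both arrays. Lats2 was not lower in the RNA labelled KO: 3 of its 4 probes had mean log2 ratios of KO over WT of 0.56, 0.63 and 0.56. The fourth (chr14:56676512-56676571) had -0.35, and the other probes lay between positions 56644080 and 56645305. The brightest of them gave 7755 units in the RNA labelled KO against 5402 in that labelled WT on the array with KO in Cy5, and 8321 against 5484 on the other. Whether these probes lie inside the deleted part of the gene is not given in the sources used here, so they may not check the genotype. The RNAs are named by their labels throughout, and every direction below rests on those labels. The cell type was also checked. Of 9 measured fibroblast markers, all 9 were detected in the WT-labelled RNA and 8 in the KO-labelled RNA, where a dim vimentin probe was not. Their mean log2 ratios ran from -0.89 for that probe to 0.89 for Fn1, with a median of -0.41. Their summed signal was 115400 to 123200 units in the RNA labelled KO against 138000 to 144900 in the other. Endothelial (Pecam1, Cdh5) and muscle (Myod1, Myog) markers were detected in neither RNA. Of 6 epithelial markers Krt5 and Krt14 were detected and of 5 neural markers 4 were, the latter with a summed signal of 2356 to 2389 units in the RNA labelled KO against 3455 to 3504 in the other. Of 6 macrophage markers, Cd68, Csf1r and Lyz2 were detected and Ptprc, Itgam and Adgre1 were not. Lyz2 was higher in the RNA labelled KO, with a mean log2 ratio of 1.10, and the summed macrophage signal was 1639 to 1678 units there against 955 to 1002 in the RNA labelled WT. The part of other cell types in the results was not tested, and in bulk RNA fewer cells of a type and less RNA per cell cannot be told apart.

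In this pair of RNAs the p53 targets did not move as 1 block. On each array Ccng1 and Perp rose by 2-fold or more in the RNA labelled KO relative to that labelled WT, and Pmaip1 fell by 2-fold or more. At a smaller threshold of 1.4-fold on each array, Mdm2 and Cdkn1a joined the higher genes. Trp53 itself, Trp53inp1, Sesn2, Bbc3 and Gadd45a were not called at either threshold. A gene was represented by its brightest probe and called when its ratio passed the threshold in the same direction on both arrays and the probe was well above background on both in the RNA in which it was higher. For comparison, among 15877 genes well above background in at least 1 RNA, 2.95% passed 2-fold on the higher side and 2.61% on the lower side, so 2 and 1 of 10 members stand beside these shares. At 1.4-fold, 4 members were higher and 1 was lower, against 9.35% and 9.5% of all genes. Perp was well above background only in the RNA labelled KO. With both RNAs required to be well above background, only Ccng1 and Pmaip1 passed 2-fold. At 1.4-fold 3 members were then higher and 1 was lower, against 8.553% and 9.101% of all genes. With each array centred on its median in place of the loess dye correction, only Perp passed 2-fold and only Ccng1 and Perp passed 1.4-fold on both arrays. Of all genes, 1.575% and 0.869% then passed 2-fold on the higher and lower side, and 3.38% and 2.75% passed 1.4-fold. The mean log2 ratios over the arrays were then still 1.57 for Ccng1, 1.03 for Cdkn1a, 0.67 for Mdm2 and -1.13 for Pmaip1. The median log2 ratio of the 10 members was -0.07, with -0.04 on the array with KO in Cy5 and -0.10 on the other, while the median of all genes was -0.0037. Between the arrays, the log2 ratio of 1 probe had an SD of 0.137 over 22357 probes. Measured against it, Mdm2, Ccng1, Cdkn1a and Perp lay above 0 by more than 1 SD on both arrays. Sesn2, Bbc3, Pmaip1 and Gadd45a lay below 0 by more than 1 SD on both, and Trp53 and Trp53inp1 did neither. This limit is that of measurement error and does not set the members apart from other genes. The quartiles of the log2 ratio of all genes well above background, -0.24 and 0.22, also lay beyond it. The share of all genes past it on both arrays was not counted.

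**Figure D1:**
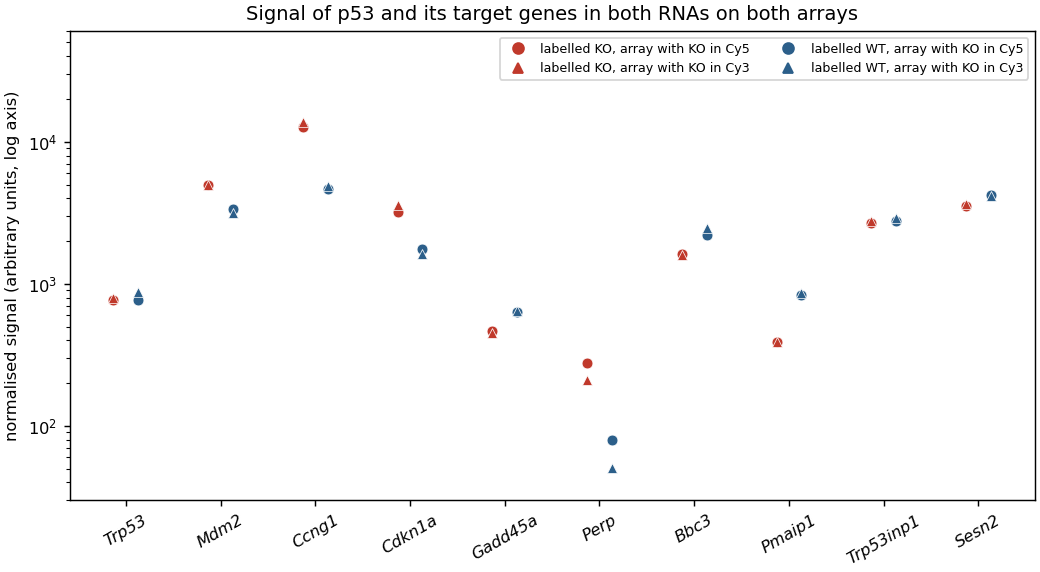
Normalised signal in arbitrary units (log axis) of the brightest probe of each of the 10 genes, in the RNA labelled KO (red) and that labelled WT (blue) on both arrays (circles, KO in Cy5; triangles, KO in Cy3). Cdkn1a is at 3226 and 3570 units in red against 1765 and 1633 in blue, and Pmaip1 is at 389 and 391 units in red against 837 and 868 in blue.

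Trp53, which encodes p53, differed little between the RNAs. Its brightest probe (chr11:69396652-69396710, mm8, as are all probe positions here) gave 763 units in the RNA labelled KO and 771 in that labelled WT on the array with KO in Cy5, and 793 and 875 on the array with KO in Cy3. The log2 ratios were -0.02 and -0.14, with a mean of -0.08. The other Trp53 probe (chr11:69405827-69405886) is spotted 10 times on each array and so shows the error within an array. Its spots ranged from -0.19 to -0.04 on the array with KO in Cy5 and from -0.05 to 0.08 on the other, and its mean was -0.05. The means of both probes were thus within the SD of a single probe, and the spots of the repeated probe lay on both sides of 0 on 1 of the arrays.

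The feedback genes Mdm2 and Ccng1 were higher in the RNA labelled KO. Mdm2, the ubiquitin ligase that limits p53, gave 4986 and 4990 units in the RNA labelled KO against 3372 and 3163 in that labelled WT at its brightest probe (chr10:117092215-117092274). The fold was 1.53, with log2 ratios of 0.56 and 0.66. A second Mdm2 probe (chr10:117095662-117095721), spotted 10 times, had a smaller mean log2 ratio of 0.42. Every spot of it was above 0, from 0.40 to 0.52 on the array with KO in Cy5 and from 0.30 to 0.43 on the other. Ccng1 encodes cyclin G1, a p53 target that recruits the phosphatase PP2A to Mdm2. It reached 12781 and 13886 units in the RNA labelled KO against 4617 and 4872 in that labelled WT (chr11:40592348-40592407), a 2.81-fold difference with log2 ratios of 1.47 and 1.51. Of all genes well above background, 1.52% had a higher mean ratio than Ccng1 and 7.92% a higher one than Mdm2. The other Ccng1 probe (chr11:40594334-40594393) went the same way with a mean log2 ratio of 0.90, and gave 5423 and 4863 units against 2646 and 2863.

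**Figure D2:**
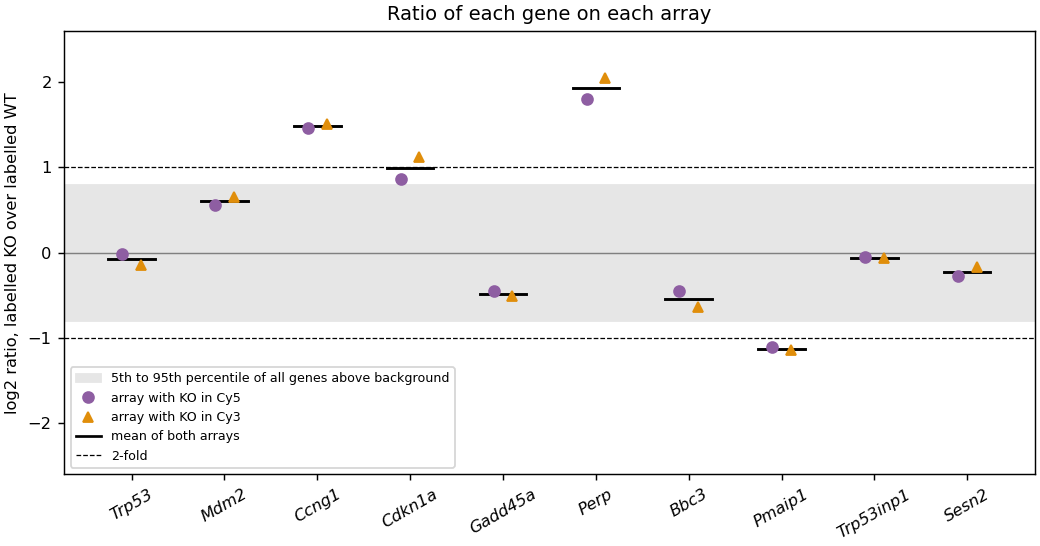
Log2 ratio of the RNA labelled KO over that labelled WT for the brightest probe of each gene on each array, with the mean as a bar, the 5th to 95th percentile of all genes above background (-0.80 to 0.79) shaded and 2-fold as dashed lines. Perp and Ccng1 lie above the upper line and Pmaip1 below the lower line on both arrays, while Cdkn1a straddles the upper line at 0.87 and 1.13.

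The arrest genes Cdkn1a and Gadd45a went in opposite directions. Cdkn1a, which encodes the Cdk inhibitor p21, gave 3226 and 3570 units in the RNA labelled KO against 1765 and 1633 in that labelled WT (chr17:28828096-28828155). Its mean difference was 2.0-fold, with log2 ratios of 0.87 and 1.13, so it passed 2-fold on the array with KO in Cy3 and missed it on the other. The probe is spotted 10 times, and its spots ran from 0.85 to 0.91 on the array with KO in Cy5 and from 1.10 to 1.18 on the other. The difference between the arrays was thus larger than the spread within either, whose SD was 0.021, and no spot of either array came near 0. Gadd45a, whose product binds Cdk1 and PCNA and acts in growth arrest and repair, gave 461 and 449 units in the RNA labelled KO against 628 and 642 in that labelled WT (chr6:66964960-66965019). The signal in the RNA labelled KO was 71.7% of that in the other, with log2 ratios of -0.45 and -0.51. Gadd45a passed 1.4-fold on 1 array only and was not called at the offset of 50. It was called lower at 1.4-fold when the offset was 10, and likewise by the deposited log2 ratios and those of Feature Extraction. Of all genes, 11.65% were lower at 1.4-fold with the smaller offset, and 14.85% by either of those other ratios. Without background subtraction, or with median centring, Gadd45a was not called.

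**Figure D3:**
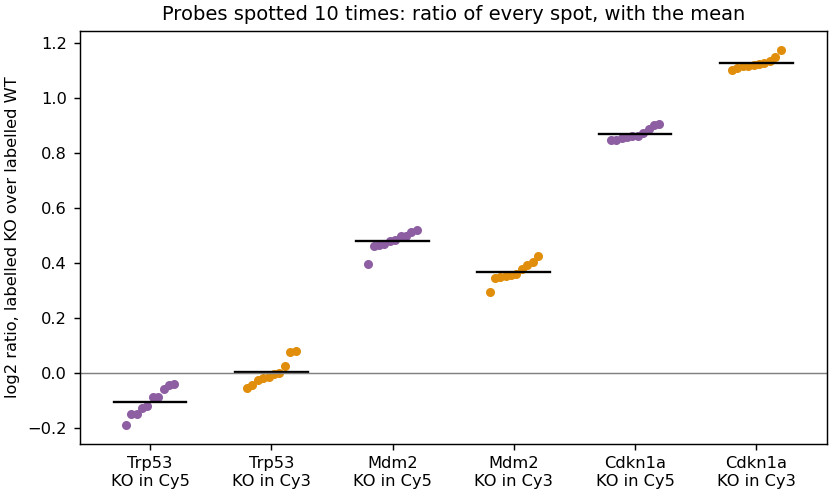
Log2 ratio of the RNA labelled KO over that labelled WT at every spot of the 3 probes that are printed 10 times (purple, array with KO in Cy5; orange, array with KO in Cy3), with the mean as a bar. The Trp53 spots lie around 0, the Mdm2 spots between 0.30 and 0.52, and the Cdkn1a spots form a separate band on each array.

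The cell death genes were split. Perp, a desmosomal membrane protein and effector of p53-dependent apoptosis that p63 also induces, gave 279 and 210 units in the RNA labelled KO and 79.8 and 50.5 in that labelled WT (chr10:18546307-18546366). In the RNA labelled WT the probe was not well above background on either array, so only an approximate bound can be given. This bound was 3.50-fold more Perp in the KO-labelled RNA. It took the lowest signal well above background or the probe's own signal, whichever was higher on each array. On the array with KO in Cy5 the probe's own 79.8 units lay above that lowest signal of 66.9. The bound therefore rests there on the fitted ratio and is not a strict lower limit. The log2 ratios at the offset used were 1.80 and 2.05, but this size depended on the background treatment. Bbc3 (PUMA) and Pmaip1 (Noxa) are BH3-only proteins that bind and neutralise the survival members of the BCL2 family, and both were on the other side. Pmaip1, on chromosome 18, gave 389 and 391 units in the RNA labelled KO against 837 and 868 in that labelled WT. It stood at 45.8% of the WT signal with log2 ratios of -1.10 and -1.15, which differed by less than the SD of a single probe, and 2.31% of all genes had a lower mean ratio. Bbc3 gave 1618 and 1584 units in the RNA labelled KO against 2211 and 2460 in that labelled WT (chr7:15476576-15476635). The mean signal in the RNA labelled KO was 68.6% of WT, but the log2 ratios of -0.45 and -0.64 passed 1.4-fold on 1 array only. All 3 genes have 1 probe on the array.

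The stress-defence genes were close to level. Trp53inp1, a nuclear and autophagy protein that favours p53 phosphorylation, gave 2666 and 2776 units in the RNA labelled KO against 2771 and 2903 in that labelled WT (chr4:11101174-11101233). Both log2 ratios were -0.06, within the spread of a single probe. A dimmer Trp53inp1 probe (chr4:11098180-11098239) gave 0.35 and 0.01, so the arrays differed there and the sign of the gene depends on the probe. Sesn2 encodes sestrin 2, which restrains mTORC1 and acts in antioxidant defence. It gave 3505 and 3661 units in the RNA labelled KO against 4228 and 4129 in that labelled WT (chr4:131764135-131764194), with log2 ratios of -0.27 and -0.17. A second Sesn2 probe (chr4:131765019-131765078) gave -0.39 and -0.37. Neither probe reached 1.4-fold, although both ratios of each lay below 0 by more than the SD of a single probe.

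Over a wider list of 45 further p53 targets, of which 41 were measured and 40 were well above background, more genes were higher than lower in the RNA labelled KO. At 1.4-fold 16 were higher and 4 were lower, beside 9.35% and 9.5% of all genes, and at 2-fold 7 were higher and 3 were lower, beside 2.95% and 2.61%. The list's median log2 ratio was 0.37, with 0.41 and 0.34 on the separate arrays, beside -0.0037 for all genes, and 29 of the 40 ratios were above 0. With median centring in place of loess, 2 genes of the list were higher at 1.4-fold, when 3.38% of all genes were, although the median of the list was then 0.42. Among the genes on the higher side were Rprm, the arrest gene reprimo, with a mean log2 ratio of 1.98, the death receptor Fas with 1.32, and Thbs1, the secreted matrix protein thrombospondin 1, with 1.26. Tnfrsf10b, the TRAIL death receptor, was higher as well at 1.04. A second probe of Fas gave 0.45, so the size of its difference depended on the probe. The called genes on the lower side were Cd82, a tetraspanin, with -2.09, Ddit4, the stress-induced mTORC1 inhibitor REDD1, with -1.61, and the mitochondrial glutaminase Gls2 with -1.13. Thbs1 is also a known target of other pathways. The list shares 2 genes with the regulators described next. It was chosen with earlier results of these data known, so its counts are not an independent comparison with all genes.

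Few of the genes that act on p53 were called. Of 26 listed regulators, 24 were measured and 23 were well above background, and the median log2 ratio was -0.20, with 18 ratios below 0 and 5 above. At 2-fold 1 regulator was higher and 0 were lower, beside 2.95% and 2.61% of all genes. The higher one was Hipk2, a kinase that phosphorylates p53, with a mean log2 ratio of 1.37 at its brightest probe, although another of its 4 probes gave 0.19. Rpl11, a ribosomal protein that binds and inhibits Mdm2, was lower at -0.87 and was the only other regulator called at 1.4-fold, where the shares of all genes were 9.35% and 9.5%. These counts were near or below those shares.

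A list of 30 genes that p53 lowers through p21 and the DREAM repressor complex, most of them genes of DNA replication and mitosis, was measured in full. At 1.4-fold 0 were higher and 18 were lower in the RNA labelled KO, beside 9.35% and 9.5% of all genes. At 2-fold, where 2.61% of all genes were lower, 4 of the list were, namely the proliferation marker Mki67 at -1.78, the cytokinesis kinesin Kif23 at -1.22, Cdc20, an activator of the anaphase-promoting complex, at -1.11 and the mitotic kinase Plk1 at -1.08. The median log2 ratio of the list was -0.57, with -0.56 and -0.59 on the separate arrays, and 28 of the 30 ratios were below 0. With median centring 1 gene was lower at 1.4-fold, when 2.75% of all genes were, although the median of the list was then -0.53. The list shares 1 gene with the regulators and none with the 10 members. It too was chosen with earlier results of these data known, so its counts are not an independent comparison with all genes. As background, the mRNAs of such genes are most abundant in dividing cells, and the part of cell proliferation in these values was not tested.

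**Figure D4:**
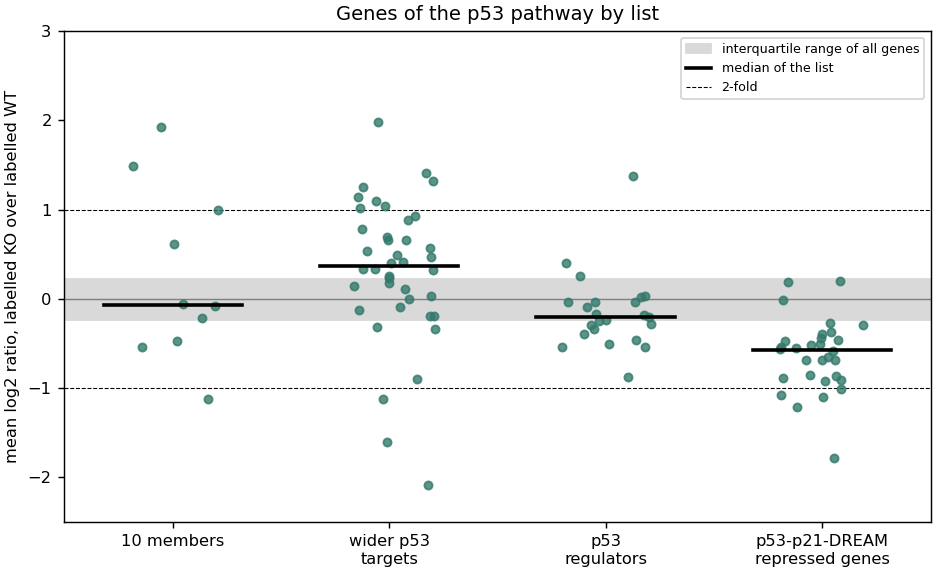
Mean log2 ratio of the RNA labelled KO over that labelled WT for each gene well above background in the 10 members (10 genes), the wider p53 targets (40), the p53 regulators (23) and the genes repressed through p53, p21 and DREAM (30), with the list's median as a bar, the interquartile range of all genes shaded and 2-fold as dashed lines. The medians are -0.07, 0.37, -0.20 and -0.57, and the members spread from -1.13 to 1.93 at the offset used.

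The ratios of the members were recomputed under other background corrections, scalings and probe rules. Of 100 recomputed ratios, 93 stayed within the SD of a single probe and 1 changed sign, that of Trp53inp1, which became 0.06 as a mean over both probes. Perp had the widest range, from 1.80 to 6.21, and the bound above is approximate, so its size stays uncertain. Ccng1 ranged from 1.20 to 1.57, Cdkn1a from 0.87 to 1.13, Mdm2 from 0.52 to 0.67 and Pmaip1 from -1.28 to -1.10, single arrays included.

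**Figure D5:**
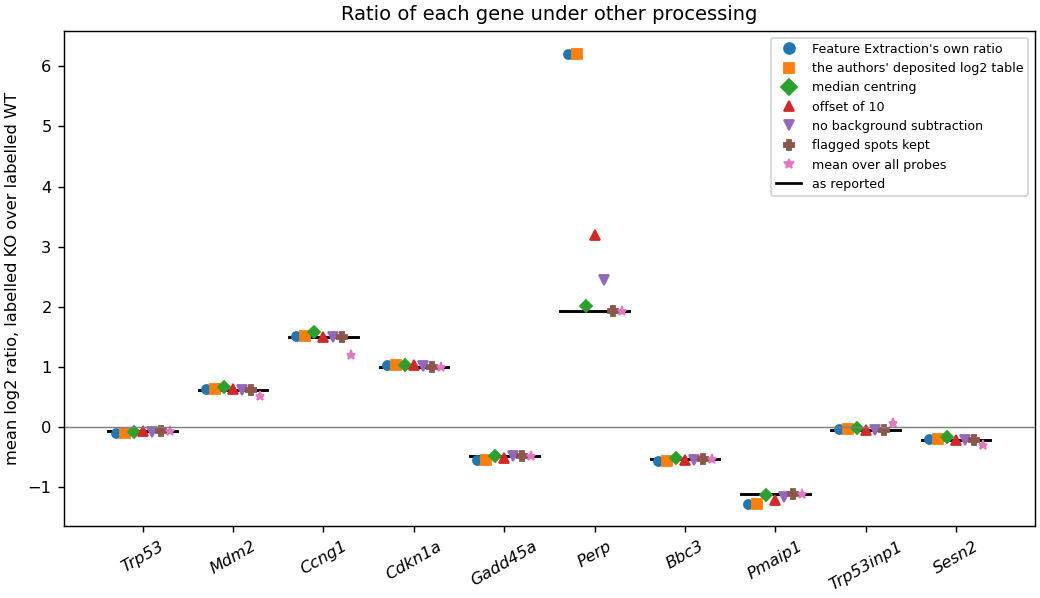
Mean log2 ratio of the RNA labelled KO over that labelled WT for each gene as reported (bar) and under 7 other ways of processing (symbols, named in the key). The symbols lie close to the bar for every gene except Perp, which reaches 6.21 in the ratios of Feature Extraction and of the deposited table, Ccng1, which is 1.20 as the mean over its probes, and Pmaip1, which is -1.28 in those same ratios.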

How the data were processed

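The members and gene lists were chosen with earlier results of these data known. The array data hold 2 arrays of 45018 spots, scanned and read with Agilent Feature Extraction 10.5.1.1 per the submitters' processing notes. The authors deposited, for each spot, its mean signal and local background median (intensity, arbitrary units). A log10 ratio of the dyes, background and dye corrected by that software, was deposited beside them. The authors also deposited a log2 table, which lay within 0.05 of the KO over WT ratio of the processed signals for 99.9% of the probes of each array. Gene names and mm8 probe positions are those of the array files.

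Here background was corrected by normexp with an offset of 50, which shrinks ratios of dim probes, and each array was normalised by loess in limma 3.58.1 (R 4.3.3). Normalised signals per channel were then scaled between arrays with Aquantile. Control spots (1639 per array) and spots marked as outliers (390 and 378) were left out, no spot was saturated, spots of a probe were averaged and the sign of the dye-swapped array was turned. The brightest probe stood for a gene. With 1 replicate per genotype no test of genotype was made. As alternatives, the methods' t-test and limma were run over all probes with each array taken as a sample. These compare the RNAs hybridised and not the genotypes. The scripts were tested on simulated data. Named genes are the members, Lats2 and, from each list, the genes called at 2-fold (the 4 highest and 4 lowest mean ratios where more than 8 were called, or the highest and lowest ratio where fewer than 2 were called), and 1 gene that this rule selects is not reported here. Sco2, Phlda3, Gpx1, Lif, Atr and Rpl5 were not matched and are not analysed here. Promoters are those of RefSeq for GRCm38.p6. Python 3.11.15, pandas 2.3.3 and matplotlib 3.10.9 were used.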

Additional observations from a re-analysis of the deposited data

How the results depend on the processing

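Of 195 recomputed values, 23 moved and 0 reversed. Some settings could not move a value or repeated another setting, as described for the ratios above, so these are not independent checks. A median or ratio counted as moved beyond its spread between arrays, and a count beyond 1.5 times. The ratio of Trp53inp1 changed sign as a mean over its probes, but within that spread, and so counted as neither. With median centring in place of loess, 1 member passed 2-fold (Perp), beside 1.575% of all genes higher and 0.869% lower. At 1.4-fold 2 members passed (Ccng1 and Perp), beside 3.38% and 2.75%. Among all genes called at 2-fold the share that was higher rose from 53.1% to 64.4%. Under that centring 2 wider targets were at least 1.4-fold higher (3.38% of all genes) and 1 DREAM gene at least 1.4-fold lower (2.75%). These list counts were recomputed as alternatives chosen after seeing the data. On the separate arrays, 3 to 4 members passed 2-fold, beside 3.28% to 3.53% of all genes higher and 2.935% to 3.39% lower. At 1.4-fold 5 to 7 members passed, beside 11.3% to 12.7% of all genes higher and 11.1% to 13.9% lower. There 17 to 19 wider targets were higher and 19 to 24 DREAM genes were lower. When the offset was 10, 6 members passed 1.4-fold on both arrays, 4 higher and 2 lower, as Gadd45a joined the lower side. The same 6 passed by the deposited log2 ratios and those of Feature Extraction. The methods' t-test and limma were combined with a mean ratio of at least 2-fold in either direction. The t-test at p under 0.05 and limma at an adjusted p under 0.05 each called 3 members (Ccng1, Perp and Pmaip1). In all they called 766 and 1006 genes. With the same fold required, the t-test after Benjamini-Hochberg called 0 members and 0 genes. Mdm2 and Cdkn1a, with mean folds of 1.53 and 1.999, could not be called in this way whatever their p. Averaging all probes of a gene moved the median of the members to -0.0015, of the regulators to -0.10 and of the DREAM genes to -0.51. Median centring gave regulator and DREAM medians of -0.22 and -0.53. With Feature Extraction's own ratio, and equally with the deposited table, the medians were 0.44 for the wider targets, -0.26 for the regulators and -0.62 for the DREAM genes, and 5.93% and 5.45% of all genes passed 2-fold on the higher and lower side. Perp was 6.21 and Pmaip1 -1.28 there, and Perp was 3.20 with an offset of 10 and 2.44 without background subtraction. Signal over background limits Perp, whose ratio has no measured lower side. No paired analysis was possible because no second replicate of a genotype exists here.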
